A study of Mus musculus with 9 samples.

Results

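Synaptic adhesion organizers are proteins of the cell surface that meet across the synaptic cleft and recruit release sites on one side and receptors on the other. The 40 mouse genes described here were chosen by name from 12 families, namely neurexins, neuroligins, LRRTM proteins, Slitrk proteins, IL1RAPL proteins, SALM proteins (the Lrfn genes), netrin-G ligands, FLRT proteins, contactins, contactin-associated proteins, latrophilins and calsyntenins. Each of the 40 matched 1 of the 47729 gene identifiers in the deposited tables. Of these, 39 had at least 1 CPM (the reads of a gene scaled to a common library total) in at least 3 libraries, the filter that admitted 13695 genes to the tests. The exception was Nrxn2, which is listed at 0 in all 9 libraries.

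Neurexins sit mainly on the presynaptic side and bind neuroligins, LRRTM proteins and calsyntenins of the facing cell. Receptor phosphatases of the LAR type form a second presynaptic hub, whose partners include Slitrk, IL1RAPL and some SALM proteins as well as the netrin-G ligand encoded by Lrrc4b. Latrophilins, which are G protein-coupled receptors, bind FLRT proteins and teneurins. The medium spiny neurons (MSNs) of the dorsal striatum receive glutamatergic input from cortex and thalamus onto their dendritic spines, and they inhibit each other and their target nuclei, so they carry organizers of both sides.

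Mice were C57BL/6 and 28 days old, the tissue was dorsal striatum, and the 9 libraries formed 3 groups of 3. The stereotypy group and the no stereotypy group were D1-Cre-flTrkB-RT mice, which carry Cre under control of the D1 dopamine receptor gene, floxed TrkB (the receptor of the growth factor BDNF, encoded by Ntrk2) and the RiboTag allele, with and without repetitive behavior. The control group was D1-Cre-RT mice, which carry the same Cre and the same RiboTag. RiboTag places a hemagglutinin (HA) tag on ribosomes of Cre-expressing cells, here the D1 MSNs of the direct pathway, and polyribosomes were precipitated through the tag. Deletion follows every cell in which Cre was active, and the labels do not say whether animals were pooled. They call the libraries of a group biological triplicates without naming the animals, so p-values measure the spread between these libraries. In RNA from tissue, fewer cells of a type and less RNA per cell cannot be told apart.

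Library totals were 27103152 to 31117135 reads with stereotypy, 35702420 to 40578512 without stereotypy and 32615356 to 36535817 in the controls, so 3 reads correspond to at most 0.111 CPM. The targeted gene Ntrk2 stood at 34.3, 43.9 and 40.7 CPM in the stereotypy libraries, 23.4, 14.1 and 19.2 CPM in the no stereotypy libraries and 319, 385 and 487 CPM in the controls and so did not go against the labels. The 8 markers of D1 MSNs summed to 2239 to 2295 CPM with stereotypy, 1514 to 1873 CPM without and 1797 to 2429.9 CPM in the controls, and none was at 0. Markers of other cells were present as well. The 12 astrocyte markers summed to 645 to 673 CPM with stereotypy, 452 to 567 CPM without and 454 to 561 CPM in the controls, and 6 of the 12 were higher with stereotypy than in controls. The 6 cortical excitatory markers summed to 280.0, 252 and 156 CPM with stereotypy, 613, 573 and 1418 CPM without and 459, 272 and 851 CPM in the controls, so replicate 3 was the highest library of each of the other two groups. The 6 markers of D2 MSNs summed to 270 to 444 CPM with stereotypy, 617 to 1075 CPM without and 458 to 1456 CPM in the controls.

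The members differ widely in base composition, and the difference between the 2 TrkB-deleted groups was ordered by it. The GC content of the longest transcript ran from 34.7% (Slitrk4) to 65.6% (Lrfn4) among the 39 tested members. As an illustration, the first 90 coding bases are given for 6 of the 12 members that differed between the TrkB-deleted groups. These are the 3 with the lowest and the 3 with the highest GC content of the coding sequence. The bases are read 5′ to 3′ on the coding strand of GENCODE M21 transcripts (GRCm38), with G and C in capitals. The first 3 were higher and the last 3 were lower with stereotypy than without.
Slitrk4: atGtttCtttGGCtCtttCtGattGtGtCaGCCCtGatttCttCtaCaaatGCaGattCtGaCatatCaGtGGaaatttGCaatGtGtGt
Il1rapl1: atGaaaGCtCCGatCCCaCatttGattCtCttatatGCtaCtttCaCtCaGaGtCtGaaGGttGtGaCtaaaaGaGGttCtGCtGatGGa
Nlgn1: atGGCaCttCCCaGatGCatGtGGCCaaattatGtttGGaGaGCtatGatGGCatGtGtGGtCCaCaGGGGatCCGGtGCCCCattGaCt
Lrfn1: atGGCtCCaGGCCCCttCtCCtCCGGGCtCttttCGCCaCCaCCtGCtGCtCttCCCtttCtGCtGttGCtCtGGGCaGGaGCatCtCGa
Lrfn3: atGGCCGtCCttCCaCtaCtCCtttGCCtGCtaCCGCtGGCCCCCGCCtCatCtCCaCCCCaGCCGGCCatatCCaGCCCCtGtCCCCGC
Lrrc4b: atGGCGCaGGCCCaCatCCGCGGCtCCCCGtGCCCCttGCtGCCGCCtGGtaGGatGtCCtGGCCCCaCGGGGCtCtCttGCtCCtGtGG
Over the whole coding sequence, G and C made up 40.9% in Slitrk4, 43.2% in Il1rapl1 and 45.9% in Nlgn1, and 63.7% in Lrfn1, 63.8% in Lrfn3 and 64.9% in Lrrc4b. In the 90 bases printed, they made up 37.8%, 41.1% and 52.2%, and 61.1%, 67.8% and 71.1%, in the same order. The printed bases of Nlgn1 are thus richer in G and C than its whole coding sequence.

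Promoters are shown for Slitrk1 and Lrrtm1, which differed from control in opposite directions in both the pooled TrkB-deleted groups and the no stereotypy group. Each line holds the 250 bases before the RefSeq start (GRCm38.p6), 5′ to 3′ on the strand of the gene, at chr14:108914240-108914489 on the minus strand and chr6:77242227-77242476 on the plus strand.
Slitrk1: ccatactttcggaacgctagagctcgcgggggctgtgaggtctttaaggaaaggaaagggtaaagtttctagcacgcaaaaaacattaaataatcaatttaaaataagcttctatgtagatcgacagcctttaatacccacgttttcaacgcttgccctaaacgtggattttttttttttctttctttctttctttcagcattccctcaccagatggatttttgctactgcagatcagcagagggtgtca
Lrrtm1: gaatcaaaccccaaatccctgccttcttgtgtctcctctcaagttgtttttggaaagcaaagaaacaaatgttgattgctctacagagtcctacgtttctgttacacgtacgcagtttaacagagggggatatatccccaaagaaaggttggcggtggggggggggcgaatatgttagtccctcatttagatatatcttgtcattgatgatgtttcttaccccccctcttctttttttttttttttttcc
GC content was 40.4% in the Slitrk1 window and 42.0% in the Lrrtm1 window. Neither holds, on either strand, any of the 7 motifs searched, so no base is in capitals. These were TGACGTCA (the CRE, found in 1.55% of 32851 RefSeq windows of the same length), TGANTCA (AP-1, 6.75% of windows), GCGTGGGCG (EGR, 0.536% of windows), CACGTG (the E-box, 6.02% of windows), GGGCGG (SP1, 32.7% of windows), the CCAAT box (33.8% of windows) and TATAAA (the core promoter element of that name, 12.4% of windows). Windows were available for 31 of the 40 members, 44 windows in all, of which 2 held a CRE, 3 an AP-1 site and 12 an SP1 site. Lrrtm3 and Il1rapl2 were lower in the same comparisons as Lrrtm1, and their windows are not printed. That of Lrrtm3 (46.0% GC) held none of the 7 motifs. That of Il1rapl2 (61.2% GC) held SP1 sites that begin 185 and 160 bases before the start.

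Levels of different genes were compared per kb of exon, since longer transcripts give more reads. In the controls, the calsyntenin gene Clstn1 had the highest level of the members, 305 ± 26.6 CPM per kb (mean ± SD, n = 3), followed by Clstn3 at 139 ± 11.5, the latrophilin gene Adgrl1 at 114 ± 4.14 and the contactin-associated gene Cntnap1 at 78.4 ± 8.73. Next came Lrrc4b at 55.3 ± 6.76, Nrxn3 at 40.7 ± 3.66, Lrrtm1 at 34.8 ± 2.78 and Cntn1 at 31.9 ± 6.36 CPM per kb. The ranges of Nrxn3, Lrrtm1 and Cntn1 within 1 SD overlapped, whereas the first 5 levels were separated by more than their SDs. The lowest levels were 1.82 ± 0.508 CPM per kb for Il1rapl2, 1.64 ± 0.795 for Cntnap4 and 1.10 ± 0.535 for Cntn5, which did not differ beyond their spread. Families therefore held members of very unequal level: Clstn2 had 5.19 ± 2.24 CPM per kb against the values of Clstn1 and Clstn3, and Adgrl2 and Adgrl3 had 6.72 ± 0.402 and 4.91 ± 0.219 CPM per kb against that of Adgrl1. The level of Nrxn2 is not known from these tables. Its exons overlap those of Slc22a12 and Gm14964 on the other strand, which are also listed at 0, and whether the counting removed its reads was not tested.

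**Figure D1:**
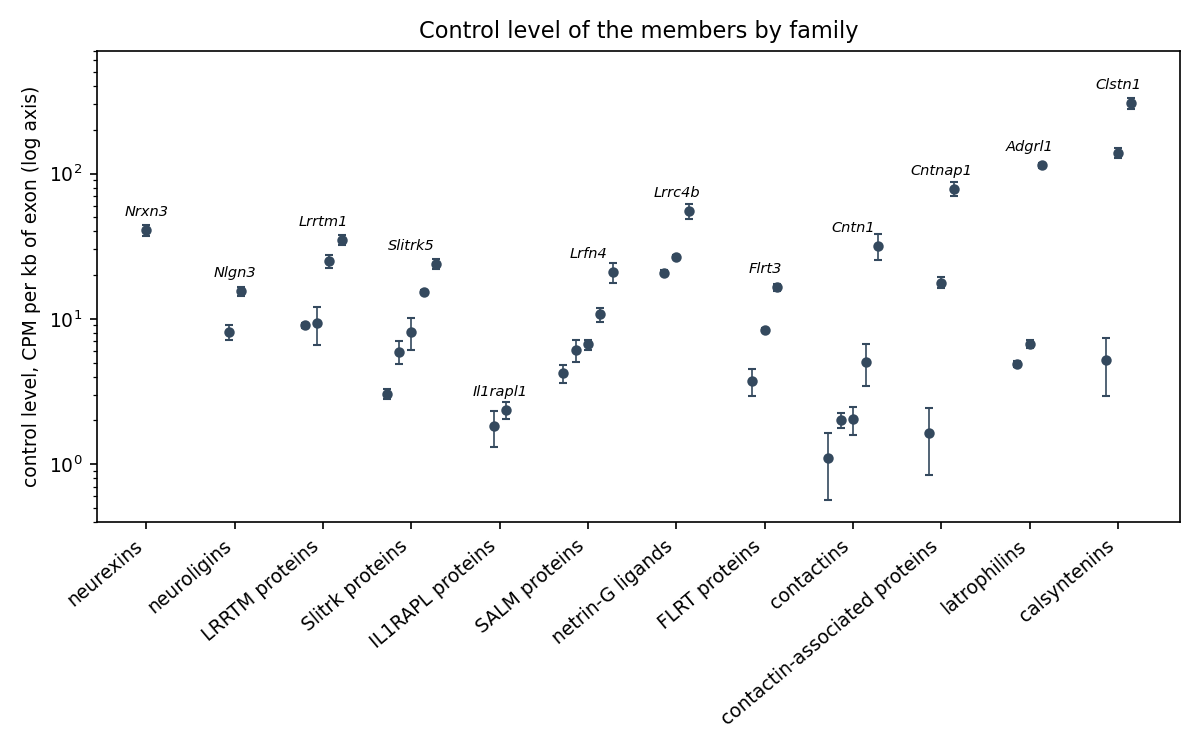
Control level of the 39 tested members in CPM per kb of exon (log axis), grouped by family. Points are means of the 3 control libraries and bars are SD. The highest member of each family is named. Clstn1 at 305 CPM per kb is the highest and Cntn5 at 1.10 the lowest.

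The first question was what followed deletion of TrkB irrespective of behavior. With both TrkB-deleted groups set against control, 5 of 39 members (12.8%) passed an adjusted p of 0.05 in limma's moderated test, against 5.72% of all tested genes. Slitrk1 and Cntn3 were higher (5.13% of members, against 3.67% of all genes) and Lrrtm1, Lrrtm3 and Il1rapl2 were lower (7.69%, against 2.05%). Slitrk1, a postsynaptic partner of the LAR-type phosphatases, had the largest difference of the 39, 0.92 (SE 0.16, adjusted p = 0.00756) in log2(CPM + 1). The median over the members was -0.04 in log2 units, against 0.04 over all tested genes. Under median-of-ratios scaling 1 member was higher (all genes 2.86%) and 4 were lower (all genes 2.64%). In a fit that also held the mean level of glial and vascular markers, 0 members passed (8 at an unadjusted p under 0.05) and 0.584% of all genes did. That level was 2.96 to 3.30 in log2 units with stereotypy, 2.32 to 2.86 without and 2.30 to 2.69 in the controls. It set the stereotypy libraries apart from the controls, so the fit cannot fully tell level and group apart. The differences in that fit were -0.99 for Il1rapl2 and 0.51 for Cntn3, larger in size than -0.88 and 0.43 without the markers. For Slitrk1, Lrrtm1 and Lrrtm3 they were 0.61, -0.37 and -0.30, smaller than 0.92, -0.51 and -0.41. Each group was then set against control by itself, with the same 3 control libraries in every comparison.

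Without stereotypy, 11 of 39 members (28.2%) differed from control, against 6.77% of all tested genes. Higher were 2 members, Slitrk1 and Lrfn2 (all genes 3.76%), and lower were 9 members (23.1%, all genes 3.01%), namely Nrxn3, Lrrtm1, Lrrtm3, Slitrk4, Il1rapl1, Il1rapl2, Lrrc4c, Flrt3 and Adgrl3. In each of the 11, the 3 no stereotypy libraries did not overlap the 3 controls. The 11 were picked by their p-values and the share over all genes is not given here, so this only describes them. After each library was corrected for its smooth dependence on GC content and exon length, 8 members passed (all genes 6.28%), of which 6 were among the 11. The calls lost there were those of Lrrtm3, at -0.47 (adjusted p = 0.0646) against -0.51 before the correction, Flrt3, at -0.47 (adjusted p = 0.0747) against -0.55, and Lrrc4c, at -0.32 (adjusted p = 0.0859) against -0.41. Slitrk4, at -0.46 (adjusted p = 0.0585) against -0.73, and Il1rapl1, at -0.37 (adjusted p = 0.107) against -0.60, were lost as well, and Cntn3 and Slitrk5 were added. Without a filter on low levels, 2 members passed, both higher (all genes 1.84%). Leaving out control replicate 1 left 2 members, and leaving out no stereotypy replicate 1 or 2 left 3 each, with 475, 317 and 444 of all 13695 genes. Foxp1, a marker shared by both MSN types, was also lower without stereotypy than in controls. Of the 6 markers in that list, 2 were called lower and 0 higher. Foxp1 had 749, 801 and 857 CPM with stereotypy, 550.2, 516 and 540.2 CPM without and 853, 737 and 718 CPM in the controls. Its part in the member values was not tested.

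With stereotypy, 1 of 39 members (2.56%) differed from control, against 5.10% of all tested genes. It was Slitrk1, which was higher (all genes 3.58%), and 0 members were lower (all genes 1.53%). At an unadjusted p under 0.05 there were 15 members (38.5%, against 24.0% of all genes), edgeR called 2 (all genes 4.70%) and DESeq2 called 5 (12.8%, all genes 11.1%). Median-of-ratios scaling gave 1 member higher (all genes 2.79%) and 1 lower (all genes 2.48%). With the GC and length trend removed, 4 members passed (all genes 4.78%), namely Slitrk1 and, lower with stereotypy, Adgrl3, Flrt1 and Il1rapl2. For both groups pooled, 7 members passed after that removal (all genes 7.13%), of which 4 were among the 5 named above.

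Stereotypy and no stereotypy mice share a genotype, so their comparison asks what went with the behavior. Here 12 of 39 members (30.8%) differed, against 10.2% of all tested genes. Higher with stereotypy were 6 members (15.4%, all genes 6.61%), namely Il1rapl1, Flrt3, Slitrk4, Slitrk2, Nlgn1 and Cntnap2. Lower with stereotypy were 6 others (15.4%, all genes 3.60%), namely Lrfn2, Lrfn1, Lrfn3, Lrrc4b, Flrt1 and Clstn1. The libraries of the 2 groups did not overlap for any of the 12, which were picked by their p-values. The share over all genes is not given here. With the GC and length trend removed, limma called 0 of 39 members (7 had an unadjusted p under 0.05) and 0.0803% of all genes. With the mean level of D2 MSN, cortical and interneuron markers held in the fit it called 0 members (18 at an unadjusted p under 0.05) and 0 of all genes. That level was 3.64 to 4.17 in log2 units with stereotypy and 4.76 to 5.54 without. It went with the group, so the fit cannot fully tell them apart. In that fit 4 of the 12 differences were larger in size, namely 1.01 for Slitrk4, 0.93 for Il1rapl1, -0.63 for Lrfn3 and -0.57 for Lrrc4b, and 8 were smaller, with no change of sign. With glial and vascular markers held in the fit, 6 members passed (all genes 2.96%), and of the 12 differences 8 were larger and 4 smaller. Cell markers differed between these groups too. Called higher with stereotypy were 4 of 6 markers shared by both MSN types, 1 of 8 of D1 MSNs, 3 of 12 of astrocytes, 2 of 10 of microglia and 3 of 10 tested vascular markers, and 1 of 6 cortical excitatory markers was called lower. Ntrk2 was higher with stereotypy by 1.05 (SE 0.19, adjusted p = 0.0206). It did not pass with the GC and length trend removed (0.88, adjusted p = 0.0663). Nor did it with glial and vascular markers (0.67, adjusted p = 0.123) or other-neuron markers (1.31, adjusted p = 0.0685) held in the fit. It passed in 5 of the 9 fits that each left out 1 library. Which cells this Ntrk2 RNA came from was not tested. The calls of the 12 members also depended on single libraries. Without stereotypy replicate 2 or 3, or without no stereotypy replicate 1 or 2, 0 members passed (22, 19, 19 and 21 at an unadjusted p under 0.05) and at most 1 gene of all 13695 did, while the signs of the 12 differences stayed. There the adjusted p of the 12 lay between 0.0585 and 0.174. Without any 1 of the other 5 libraries, 9 to 14 members passed, with 806 to 1982 of all 13695 genes. Stereotypy replicate 1 also decided Lrfn3, Lrrc4b, Flrt1, Cntnap2 and Clstn1 (adjusted p from 0.0552 to 0.0876 without it), no stereotypy replicate 3 Flrt1, Cntnap2 and Clstn1 (0.0503 to 0.0689), and control replicate 1 Lrrc4b and Cntnap2 (0.0561 and 0.0539).

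**Figure D2:**
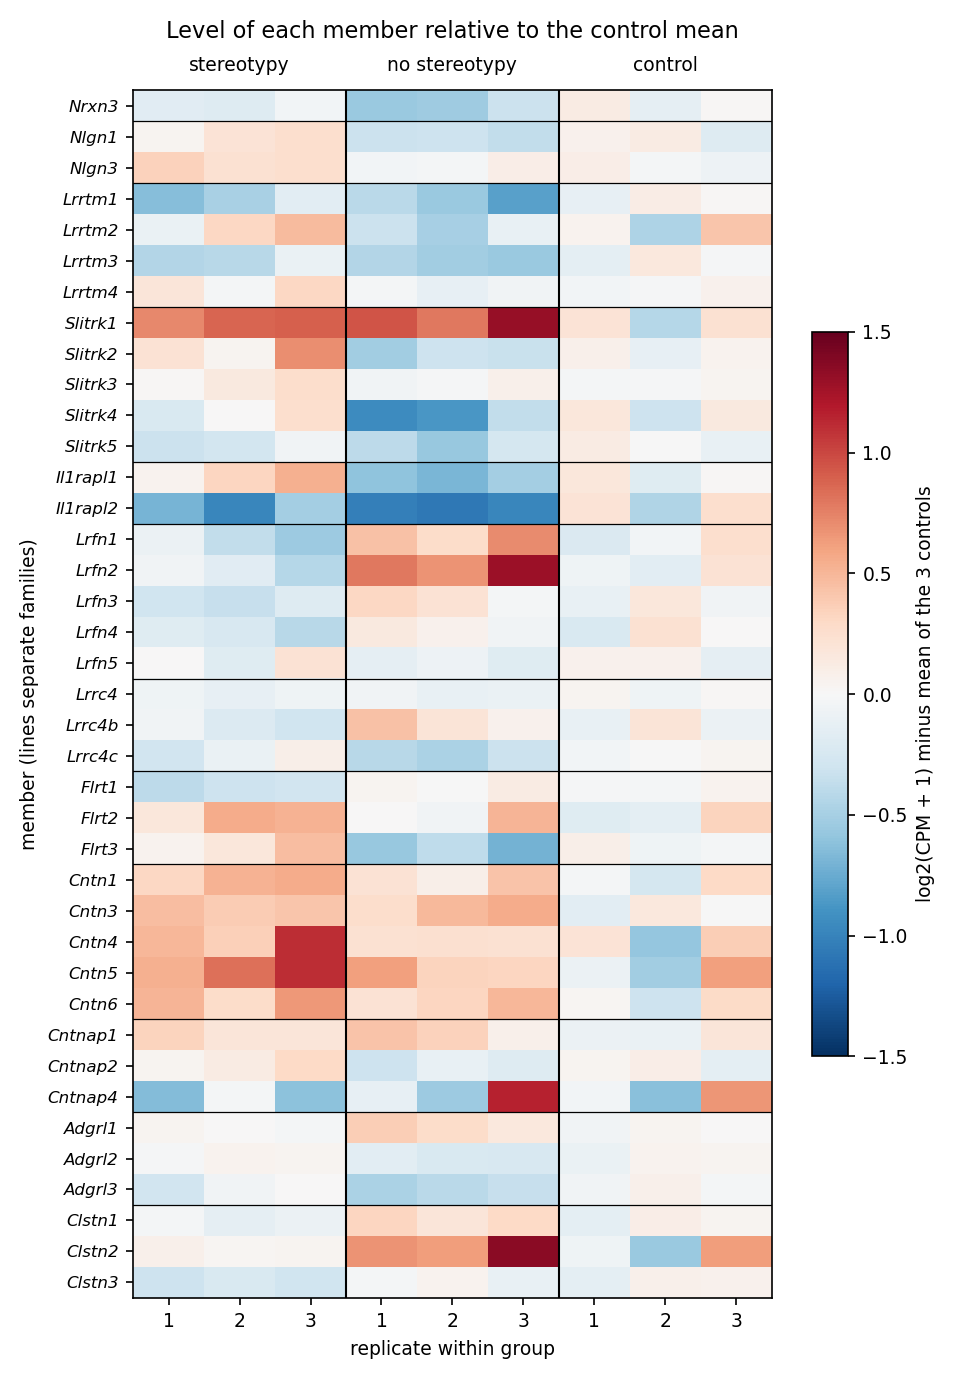
Level of the 39 tested members in the 9 libraries as log2(CPM + 1) minus the mean of the 3 controls, red above and blue below, ordered by family. Columns are replicates 1 to 3 of the stereotypy, no stereotypy and control groups. Slitrk1 is red in all 6 TrkB-deleted libraries and Il1rapl2 is blue in all 6, while Il1rapl1, Slitrk4 and Flrt3 are blue in the no stereotypy libraries.

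Among the neurexins, Nrxn3 (ENSMUSG00000066392, chr12:88722876-90334935, plus strand; GRCm38, as all gene positions here) was the member with reads. Its level was 454, 446 and 497 CPM in the stereotypy libraries, 348, 352 and 409 CPM in the no stereotypy libraries and 557, 465 and 516 CPM in the controls. All 3 no stereotypy libraries were below every other library, and the stereotypy libraries overlapped the controls. The log2 difference from control was -0.47 (SE 0.10, adjusted p = 0.0177) without stereotypy and -0.14 (SE 0.10, adjusted p = 0.423) with it. Without no stereotypy replicates 1 or 2 or control replicate 1, the adjusted p lay between 0.0647 and 0.0889 for the first of these. Stereotypy minus no stereotypy was 0.33 (SE 0.10, adjusted p = 0.0538).

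Neuroligins are postsynaptic receptors of neurexins. Nlgn1 (ENSMUSG00000063887, chr3:25426215-26332460, minus strand), found mainly at excitatory synapses, had 111, 125 and 129 CPM with stereotypy, 86.2, 86.7 and 83.6 CPM without and 113, 118 and 94.4 CPM in the controls. Every no stereotypy library was below the 6 others, and the stereotypy libraries overlapped the controls. Nlgn1 was higher with stereotypy than without by 0.50 (SE 0.10, adjusted p = 0.0227), and against control it stood at 0.17 (adjusted p = 0.345) with stereotypy and -0.33 (adjusted p = 0.0761) without. Nlgn3, which acts at both excitatory and inhibitory synapses, had 182, 168 and 171 CPM with stereotypy, 139, 140.3 and 153 CPM without and 153, 140.4 and 135 CPM in the controls. The stereotypy libraries were above all 6 others, with differences of 0.28 (adjusted p = 0.077) from control and 0.27 (adjusted p = 0.0618) from no stereotypy that did not pass. A part of the exons of Nlgn3 (41.2% of their bases) overlaps Gm21986, which averaged 0.294 CPM.

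LRRTM proteins are leucine-rich repeat receptors of the postsynaptic membrane of excitatory synapses that bind neurexins. Lrrtm1 (ENSMUSG00000060780, chr6:77242689-77257791, plus strand) had 67.2, 74.9 and 94.4 CPM with stereotypy, 79.4, 71.5 and 59.4 CPM without and 96.8, 114 and 107 CPM in the controls. Every TrkB-deleted library lay below the 3 controls, stereotypy replicate 3 by the least. The difference from control was -0.51 (SE 0.12, adjusted p = 0.0355) for both groups, -0.59 (adjusted p = 0.0306) without stereotypy and -0.43 (adjusted p = 0.0977) with it. Without stereotypy replicates 1 or 2, no stereotypy replicate 2 or control replicates 1, 2 or 3, the adjusted p lay between 0.0607 and 0.104 for both groups. Without stereotypy replicate 2, no stereotypy replicates 2 or 3 or control replicates 1, 2 or 3, the adjusted p lay between 0.0505 and 0.0787 for the no stereotypy group.

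Lrrtm3 (ENSMUSG00000042846, chr10:63928472-64090277, minus strand) had 77.7, 79.1 and 98.7 CPM with stereotypy, 77.3, 73.1 and 71.2 CPM without and 95.5, 118 and 104 CPM in the controls. All no stereotypy libraries were below the controls, and stereotypy replicate 3 lay within their range. The difference from control was -0.41 (SE 0.10, adjusted p = 0.0358) for both groups, -0.51 (adjusted p = 0.0238) without stereotypy and -0.31 (adjusted p = 0.127) with it. Without stereotypy replicates 1 or 2, no stereotypy replicates 1, 2 or 3 or control replicates 2 or 3, the adjusted p lay between 0.0558 and 0.112 for both groups. Without no stereotypy replicates 1, 2 or 3 or control replicate 2, the adjusted p lay between 0.0555 and 0.0784 for the no stereotypy group. The other two members, Lrrtm2 and Lrrtm4, averaged 65.1 ± 13.0 and 62.3 ± 7.53 CPM with stereotypy, 44.1 ± 5.96 and 52.9 ± 1.90 CPM without and 56.3 ± 16.8 and 55.5 ± 2.14 CPM in the controls (SD, n = 3 each) and passed in no comparison. For Lrrtm2, every stereotypy library was above every no stereotypy library, by 0.54 (adjusted p = 0.119).

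Slitrk proteins bind the LAR-type phosphatases from the postsynaptic side. Slitrk1 (ENSMUSG00000075478, chr14:108908800-108914158, minus strand) had 70.4, 78.8 and 79.6 CPM with stereotypy, 82.7, 73.9 and 106 CPM without and 49.0, 31.2 and 49.7 CPM in the controls. All 6 TrkB-deleted libraries were above all 3 controls, of which replicate 2 was the lowest, and the TrkB-deleted groups overlapped each other. The difference from control was 0.83 (SE 0.18, adjusted p = 0.0299) with stereotypy and 1.01 (SE 0.18, adjusted p = 0.0091) without. The pooled call and that of the no stereotypy group held without any 1 of the 9 libraries, with pooled differences of 0.71 to 1.03. Without stereotypy replicates 1, 2 or 3, the adjusted p lay between 0.0642 and 0.111 for the stereotypy group. In a fit that also held the mean level of glial and vascular markers, the value was 0.34 (adjusted p = 0.694) with stereotypy, 0.88 (adjusted p = 0.0128) without and 0.61 (adjusted p = 0.199) pooled. Stereotypy libraries and controls did not overlap in that level, so the fit cannot fully tell level and group apart.

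**Figure D3:**
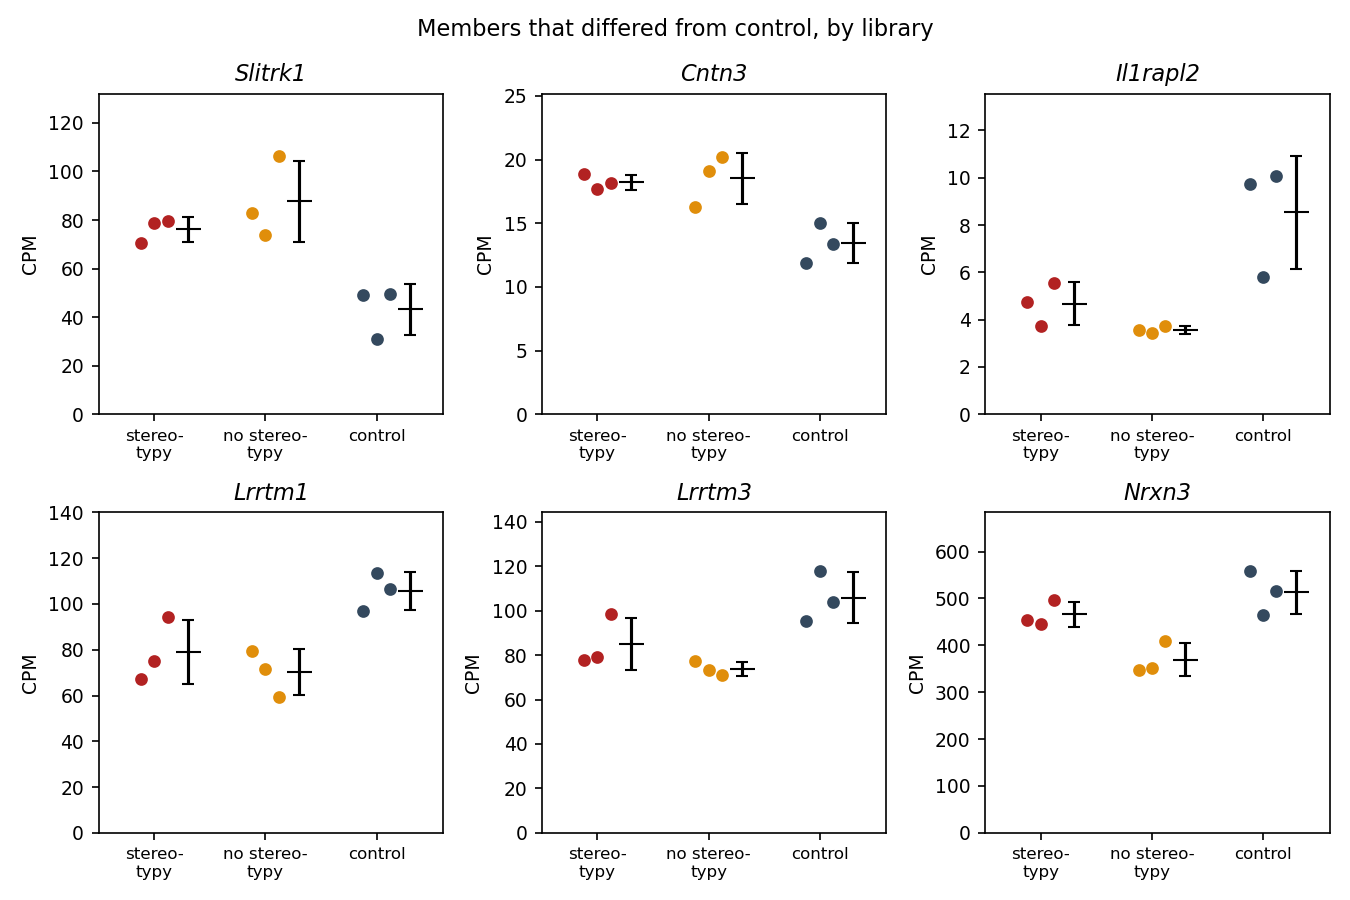
Levels in CPM of the 5 members that differed from control with both TrkB-deleted groups pooled, and of Nrxn3, in each library. Points are libraries and the bar beside them is the mean ± SD of the group (n = 3). Slitrk1 reads 70.4, 78.8 and 79.6 CPM with stereotypy, 82.7, 73.9 and 106 CPM without and 49.0, 31.2 and 49.7 CPM in the controls, while Il1rapl2 and Lrrtm1 are lower in all 6 TrkB-deleted libraries than in the controls.

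Slitrk4 (ENSMUSG00000046699, chrX:64264885-64276996, minus strand) had 43.7, 51.6 and 61.2 CPM with stereotypy, 26.2, 27.5 and 39.6 CPM without and 57.8, 41.2 and 57.1 CPM in the controls. The no stereotypy libraries were below all others, and the stereotypy libraries overlapped the controls. Its difference was -0.73 (SE 0.19, adjusted p = 0.0417) without stereotypy against control, 0.01 (adjusted p = 0.984) with stereotypy against control and 0.74 (SE 0.19, adjusted p = 0.0352) between the TrkB-deleted groups. Without stereotypy replicates 1 or 2, no stereotypy replicates 1 or 2 or control replicates 1 or 3, the adjusted p lay between 0.0503 and 0.162 for no stereotypy against control. Slitrk2 (ENSMUSG00000036790, chrX:66649318-66661393, plus strand) had 28.7, 25.2 and 40.5 CPM with stereotypy, 16.7, 19.6 and 19.2 CPM without and 25.8, 22.4 and 25.5 CPM in the controls. It was higher with stereotypy than without by 0.71 (SE 0.16, adjusted p = 0.0272), with no overlap, stereotypy replicate 3 being the highest library.

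Slitrk5, which in mice binds TrkB and whose loss affects corticostriatal synapses, had 100.0, 103 and 121 CPM with stereotypy, 95.2, 84.2 and 104 CPM without and 136, 125 and 116 CPM in the controls. The no stereotypy libraries were below the controls, and the stereotypy libraries overlapped both groups. The difference from control was -0.41 (SE 0.11, adjusted p = 0.0505) without stereotypy and -0.22 (SE 0.11, adjusted p = 0.256) with it. With the GC and length trend removed it was -0.48 (adjusted p = 0.0346) without stereotypy and -0.38 (adjusted p = 0.046) for both groups. Slitrk3 averaged 82.6 ± 6.98 CPM with stereotypy, 74.5 ± 3.57 CPM without and 74.5 ± 2.12 CPM in the controls and passed in no comparison. The family thus held 1 member above control and 1 below it without stereotypy, and 3 that did not pass.

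IL1RAPL proteins belong to the interleukin-1 receptor family and, in the case of Il1rapl1, bind the LAR-type phosphatase PTPδ. Il1rapl2 (ENSMUSG00000059203, chrX:137570608-138846946, plus strand), the close relative of Il1rapl1, had 4.76, 3.73 and 5.53 CPM with stereotypy, 3.57, 3.42 and 3.75 CPM without and 9.74, 5.80 and 10.1 CPM in the controls. The 6 TrkB-deleted libraries were all below the 3 controls, of which replicate 2 was the lowest by a wide margin. The difference from control was -0.88 (SE 0.18, adjusted p = 0.0172) for both groups, -1.03 (adjusted p = 0.0141) without stereotypy and -0.73 (adjusted p = 0.0634) with it. Without control replicates 1 or 3, the adjusted p lay between 0.0586 and 0.0764 for both groups. Without no stereotypy replicates 1 or 2 or control replicate 1, the adjusted p lay between 0.0531 and 0.0598 for the no stereotypy group.

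Il1rapl1 (ENSMUSG00000052372, chrX:86740870-88115645, minus strand) had 22.8, 27.6 and 32.2 CPM with stereotypy, 14.1, 13.2 and 15.1 CPM without and 24.8, 19.2 and 22.2 CPM in the controls. No stereotypy libraries were below all 6 others, while stereotypy libraries reached above the controls but overlapped them. Its difference was 0.90 (SE 0.14, adjusted p = 0.0154) between the TrkB-deleted groups, -0.60 (SE 0.14, adjusted p = 0.0324) without stereotypy against control and 0.30 (adjusted p = 0.227) with stereotypy against control. Without stereotypy replicate 2, no stereotypy replicates 1 or 2 or control replicates 1 or 3, the adjusted p lay between 0.0559 and 0.114 for no stereotypy against control. Against control, then, Il1rapl2 had negative values in both TrkB-deleted groups and Il1rapl1 a negative value without stereotypy and a positive one with it.

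SALM proteins are leucine-rich repeat proteins, several of which bind the scaffold PSD-95 through their tails. Lrfn2 (SALM1; ENSMUSG00000040490, chr17:48932379-49097588, plus strand), which interacts with NMDA receptors, had 12.9, 11.8 and 9.74 CPM with stereotypy, 24.0, 22.0 and 34.1 CPM without and 12.8, 11.9 and 15.7 CPM in the controls. The no stereotypy libraries were above all 6 others, with replicate 3 the highest, and the stereotypy libraries overlapped the controls. The difference was -1.13 (SE 0.18, adjusted p = 0.0154) between the TrkB-deleted groups and 0.92 (SE 0.18, adjusted p = 0.0134) without stereotypy against control. Without control replicate 1, the adjusted p was 0.0505 for no stereotypy against control.

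Lrfn1 (SALM2; ENSMUSG00000030600, chr7:28451980-28468242, plus strand) had 22.2, 18.1 and 15.9 CPM with stereotypy, 32.3, 28.7 and 39.4 CPM without and 20.2, 23.0 and 28.5 CPM in the controls. Every no stereotypy library was above the 6 others, and the difference between the TrkB-deleted groups was -0.81 (SE 0.17, adjusted p = 0.024). Lrfn3 (SALM4; ENSMUSG00000036957, chr7:30355489-30362772, minus strand) had 24.8, 24.1 and 26.7 CPM with stereotypy, 38.6, 36.0 and 30.2 CPM without and 28.4, 34.7 and 29.6 CPM in the controls. Its stereotypy libraries were below all others, with differences of -0.45 (SE 0.12, adjusted p = 0.0424) against no stereotypy and -0.28 (adjusted p = 0.189) against control. Lrfn4 (SALM3), a ligand of LAR-type phosphatases, had 61.1, 58.6 and 52.1 CPM with stereotypy, 77.0, 72.7 and 67.1 CPM without and 59.1, 81.7 and 70.0 CPM in the controls. The TrkB-deleted groups did not overlap, yet the difference of -0.33 (adjusted p = 0.101) did not pass. Lrfn5 (SALM5) averaged 64.6 ± 9.12 CPM with stereotypy, 58.0 ± 2.37 CPM without and 63.6 ± 5.03 CPM in the controls and passed in no comparison. Of the 5 SALM genes, 3 were therefore lower with stereotypy than without, and Lrfn5, whose transcript holds 44.2% G and C against 57.1% to 65.6% in the other four, had a difference of 0.15.

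The netrin-G ligands are postsynaptic and receive netrin-G1 (Lrrc4c), netrin-G2 (Lrrc4) and the phosphatase LAR (Lrrc4b). Lrrc4c (ENSMUSG00000050587, chr2:96318169-97631666, plus strand) had 101, 115 and 131 CPM with stereotypy, 91.7, 88.3 and 97.8 CPM without and 120.0, 123 and 127 CPM in the controls. The no stereotypy libraries were below all others, and the difference from control was -0.41 (SE 0.10, adjusted p = 0.0359) without stereotypy and -0.10 (adjusted p = 0.583) with it. Without stereotypy replicate 2, no stereotypy replicates 1 or 2 or control replicates 1, 2 or 3, the adjusted p lay between 0.0586 and 0.126 for the first of these. Lrrc4b (ENSMUSG00000047085, chr7:44429018-44463351, plus strand) had 155, 139.9 and 131 CPM with stereotypy, 219.8, 185 and 169 CPM without and 149, 185 and 152 CPM in the controls. The TrkB-deleted groups did not overlap and differed by -0.42 (SE 0.12, adjusted p = 0.0495), while control replicate 2 reached into the range of the no stereotypy group. Lrrc4 was the most even member, with 78.1 ± 1.95 CPM with stereotypy, 78.0 ± 1.67 CPM without and 82.9 ± 3.11 CPM in the controls and a difference of 0.00 (SE 0.08, adjusted p = 0.991) between the TrkB-deleted groups.

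FLRT proteins are postsynaptic ligands of latrophilins and also of Unc5 receptors. Flrt3 (ENSMUSG00000051379, chr2:140650914-140671469, minus strand) had 83.4, 89.9 and 111 CPM with stereotypy, 53.8, 61.1 and 48.5 CPM without and 85.0, 76.8 and 78.7 CPM in the controls. No stereotypy libraries were below all 6 others, and stereotypy replicate 3 was the highest library. The difference was 0.78 (SE 0.12, adjusted p = 0.0154) between the TrkB-deleted groups and -0.55 (SE 0.12, adjusted p = 0.0224) without stereotypy against control. Without no stereotypy replicates 1 or 3 or control replicate 1, the adjusted p lay between 0.0577 and 0.0861 for no stereotypy against control. Flrt1 (ENSMUSG00000047787, chr19:7092001-7105729, minus strand) had 37.3, 39.5 and 40.1 CPM with stereotypy, 50.6, 49.0 and 53.6 CPM without and 48.6, 48.3 and 51.1 CPM in the controls. All stereotypy libraries were below the 6 others, and the difference was -0.38 (SE 0.09, adjusted p = 0.0269) against no stereotypy and -0.33 (SE 0.09, adjusted p = 0.0502) against control. Flrt2 averaged 38.6 ± 5.61 CPM with stereotypy, 32.4 ± 7.50 CPM without and 28.9 ± 6.23 CPM in the controls and passed in no comparison. A pair of related ligands thus had opposite signs, Flrt3 positive and Flrt1 negative, between the TrkB-deleted groups.

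Latrophilins are the facing receptors. Adgrl3 (ENSMUSG00000037605, chr5:81020138-81825133, plus strand), which binds Flrt3, had 71.3, 83.8 and 87.3 CPM with stereotypy, 62.7, 65.5 and 68.2 CPM without and 84.3, 91.6 and 85.7 CPM in the controls. All 3 no stereotypy libraries were below the 6 others, and the difference from control was -0.41 (SE 0.10, adjusted p = 0.0287) without stereotypy and -0.11 (adjusted p = 0.502) with it. Without no stereotypy replicates 1 or 2 or control replicates 1 or 2, the adjusted p lay between 0.0614 and 0.124 for the first of these. Adgrl1 had 1006, 982 and 959 CPM with stereotypy, 1266, 1185 and 1095 CPM without and 940.4, 1011 and 986 CPM in the controls. Each no stereotypy library was above all others, by 0.27 (adjusted p = 0.0849) against control, and stereotypy minus no stereotypy was -0.26 (adjusted p = 0.0676), neither past the threshold. Adgrl2 averaged 97.2 ± 2.77 CPM with stereotypy, 82.2 ± 2.64 CPM without and 95.5 ± 5.71 CPM in the controls and passed in no comparison.

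Contactins are immunoglobulin proteins with a lipid anchor, and all 5 had positive differences from control in both TrkB-deleted groups. Cntn3 (ENSMUSG00000030075, chr6:102162655-102573101, minus strand) had 18.8, 17.7 and 18.2 CPM with stereotypy, 16.3, 19.1 and 20.2 CPM without and 11.9, 15.1 and 13.4 CPM in the controls. Each of the 6 TrkB-deleted libraries was above the 3 controls, and the pooled difference was 0.43 (SE 0.11, adjusted p = 0.0462). Without stereotypy replicates 1, 2 or 3, no stereotypy replicates 1, 2 or 3 or control replicates 1 or 3, the adjusted p lay between 0.0545 and 0.154, and under median-of-ratios scaling the difference was 0.39 with an adjusted p of 0.0723. Cntn1, which forms the axonal complex with Cntnap1 at the edges of the node of Ranvier, had 369, 427 and 438 CPM with stereotypy, 345, 317 and 399.5 CPM without and 291, 246 and 365 CPM in the controls. Its stereotypy libraries were above the controls, with a pooled difference of 0.36 (SE 0.12, adjusted p = 0.129).

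Cntn4 had 58.4, 53.0 and 90.3 CPM with stereotypy, 48.6, 48.7 and 48.6 CPM without and 47.7, 27.3 and 53.7 CPM in the controls. Control replicate 2 was the lowest library and stereotypy replicate 3 the highest, and the pooled difference was 0.44 (SE 0.21, adjusted p = 0.262). Cntn5 had 7.20, 9.09 and 11.3 CPM with stereotypy, 7.70, 6.13 and 6.09 CPM without and 4.35, 2.94 and 7.67 CPM in the controls. The same 2 libraries were the extremes, and the pooled difference was 0.62 (SE 0.23, adjusted p = 0.145). Cntn6 averaged 18.7 ± 2.53 CPM with stereotypy, 16.9 ± 1.79 CPM without and 13.3 ± 2.90 CPM in the controls. Of the 5 contactins, 1 passed in the pooled comparison and the pooled differences ran from 0.36 to 0.62. Astrocyte markers had their highest sum in stereotypy replicate 3. Oligodendrocyte and oligodendrocyte precursor markers had theirs in stereotypy replicate 1, and replicate 3 had their lowest sums of that group, 1207 and 21.7 CPM. Cntn1, Cntn4, Cntn5 and Cntn6 were highest in stereotypy replicate 3, and Cntn3 was highest in no stereotypy replicate 3. The precursor markers, 6 genes, summed to 21.7 to 30.6 CPM with stereotypy, 16.0 to 28.2 CPM without and 10.7 to 20.6 CPM in the controls, and the 12 oligodendrocyte markers to 1207 to 2151 CPM with stereotypy, 771 to 1755 CPM without and 588 to 1221 CPM in the controls. With glial and vascular markers held in the fit, the pooled difference was 0.13 (adjusted p = 0.814) for Cntn1, 0.51 (adjusted p = 0.235) for Cntn3, 0.37 (adjusted p = 0.698) for Cntn4, 0.37 (adjusted p = 0.721) for Cntn5 and 0.32 (adjusted p = 0.614) for Cntn6.

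Contactin-associated proteins pair with contactins along axons. Cntnap2 (ENSMUSG00000039419, chr6:45059357-47304213, plus strand), which clusters potassium channels next to the nodes, had 187, 198 and 223 CPM with stereotypy, 146, 168 and 158 CPM without and 188, 194 and 165 CPM in the controls. The TrkB-deleted groups did not overlap and differed by 0.36 (SE 0.10, adjusted p = 0.0447), and both overlapped the controls. The call was lost under median-of-ratios scaling (0.34, adjusted p = 0.0664), under TMM scaling (0.35, adjusted p = 0.0639) and in edgeR (0.35, adjusted p = 0.0669). Cntnap1 had 577, 522 and 521 CPM with stereotypy, 619, 585 and 483 CPM without and 432, 429 and 519.6 CPM in the controls. Its stereotypy libraries were above the controls, by 0.23 (adjusted p = 0.235), and the no stereotypy libraries overlapped them. Cntnap4, known from interneurons, averaged 7.01 ± 2.06 CPM with stereotypy, 12.5 ± 8.77 CPM without and 10.3 ± 4.99 CPM in the controls and passed in no comparison.

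Calsyntenins are cadherin-type proteins. Clstn1 (ENSMUSG00000039953, chr4:149586468-149648899, plus strand), which links cargo to the motor kinesin-1, had 1389, 1293 and 1331 CPM with stereotypy, 1769.9, 1611 and 1738 CPM without and 1283, 1523 and 1455 CPM in the controls. No stereotypy libraries were above all others, and the TrkB-deleted groups differed by -0.35 (SE 0.09, adjusted p = 0.0403). After quantile normalization the difference was -0.27 (adjusted p = 0.0642). Clstn3, a ligand of neurexins, averaged 567 ± 18.1 CPM with stereotypy, 676 ± 39.9 CPM without and 690.1 ± 57.2 CPM in the controls, and its stereotypy libraries lay below all others without passing. Clstn2 had 29.4, 28.4 and 28.7 CPM with stereotypy, 45.1, 43.4 and 72.7 CPM without and 26.5, 18.6 and 43.5 CPM in the controls. Its stereotypy libraries were within a narrow range, whereas replicate 3 was the highest library of the other groups, and the difference of -0.84 (SE 0.27, adjusted p = 0.068) between the TrkB-deleted groups did not pass.

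In 6 members, Slitrk1, Lrfn1, Lrfn2, Flrt1, Cntnap4 and Clstn2, no stereotypy replicate 3 was the highest library and control replicate 3 the highest control. Those are also the 2 libraries with the highest sums of cortical excitatory markers, of D2 MSN markers and of interneuron markers. The 6 members were picked by this order of libraries. The share over all genes is not given here, so this only describes them. The 8 interneuron markers summed to 248, 380.0 and 212 CPM with stereotypy, 392, 317 and 478 CPM without and 308, 217 and 472 CPM in the controls, and no marker of the 3 lists was at 0 in all libraries. Without no stereotypy replicate 3, the difference of Lrfn2 between the TrkB-deleted groups was -0.95. With the markers of other neurons held in the fit, the difference between the TrkB-deleted groups was -0.72 (adjusted p = 0.0763) for Lrfn2, -0.45 (adjusted p = 0.158) for Lrfn1 and -0.31 (adjusted p = 0.151) for Flrt1, and the pooled difference of Slitrk1 from control was 0.99 (adjusted p = 0.000932).

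**Figure D4:**
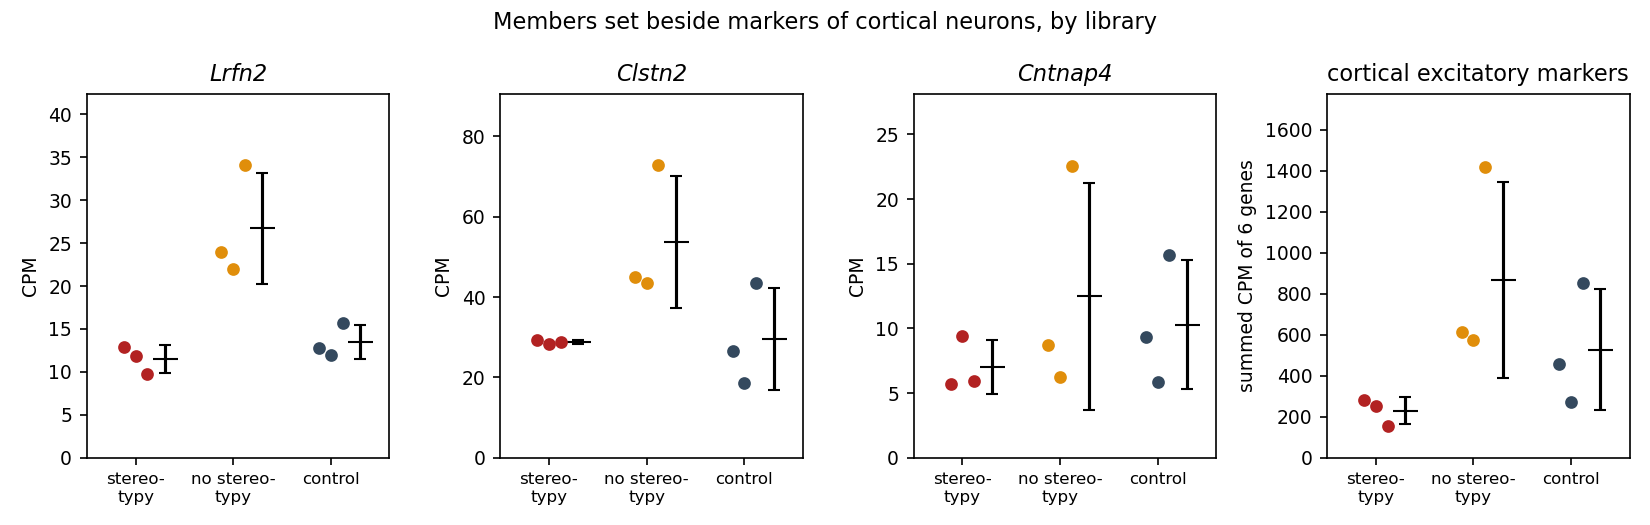
Levels in CPM of 3 of these members, Lrfn2, Clstn2 and Cntnap4, and the summed CPM of 6 cortical excitatory markers, in each library. Points are libraries and the bar beside them is the mean ± SD (n = 3). No stereotypy replicate 3 is the highest point in all 4 panels, at 34.1, 72.7, 22.5 and 1418 CPM.

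The difference between the TrkB-deleted groups was ordered by base composition. Across the 39 members it had a Spearman rho of -0.78 (Pearson r -0.78) with the GC content of the longest transcript, against a rho of -0.57 across 13655 genes. Genes share the same 6 libraries and are not independent replicates, so this is a description. Of the 26 members under 50% GC, 23 had a higher mean with stereotypy and the median difference was 0.28. Among the 13 members with at least 50% GC, 11 had a lower mean with stereotypy and the median was -0.35. The 6 members called higher held 34.7% to 44.5% GC and the 6 called lower 53.9% to 63.5%. Among all tested genes, the 905 called higher had a median of 42.6% GC and the 493 called lower one of 56.7%. The split of the calls by GC content was therefore not particular to the members. The counts by sign under and above 50% GC are not given here for all genes.

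After removal of the GC and length trend, the medians were 0.07 for the 26 and -0.16 for the 13. The largest differences that then remained were those of Lrfn2, -0.94 (adjusted p = 0.0636), Lrfn1, -0.56 (adjusted p = 0.0904), and Flrt3, 0.55 (adjusted p = 0.0857), among the 12, none past the threshold. Nlgn1, at 0.50 before removal, was at 0.06 after it, and Slitrk4, at 0.74 before, was at 0.20. The coding sequence gave a rho of -0.71 and the last position of its codons one of -0.68. Against control, the rho with GC content was -0.55 with stereotypy and 0.44 without (all genes -0.31 and 0.32). For both groups pooled it was 0.07 (all genes -0.0023). The pooled difference is the average of the differences of both groups, whose rhos had opposite signs. The value of 0.07 therefore does not tell whether the pooled calls depended on GC content. After removal of the trend, 4 of the 5 pooled calls passed, and that of Cntn3 was lost, at 0.38 (adjusted p = 0.0806).

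**Figure D5:**
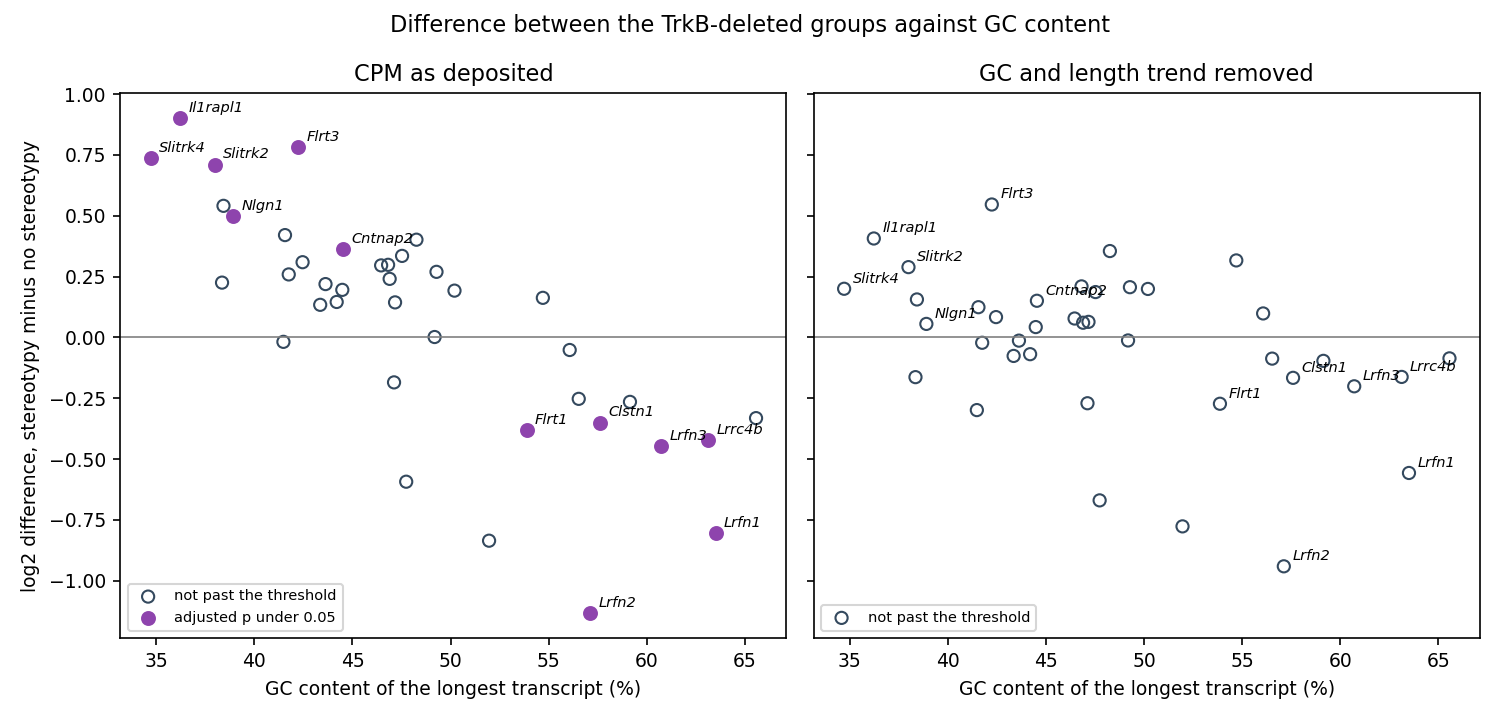
Difference in log2(CPM + 1), stereotypy minus no stereotypy, of the 39 tested members against the GC content of the longest transcript, from CPM as deposited (left) and after removal of the trend over GC content and length (right). Filled points passed an adjusted p of 0.05 and the 12 members that passed on the left are named in both panels. On the left the 6 named members above 0 lie under 45% GC and the 6 below 0 above 53%, and on the right no point is filled.

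Partners of the members were followed through 97 further genes in 5 lists, of which 94 were tested. In both TrkB-deleted groups against control, 5 were higher and 3 lower (8.51%, against 5.72% of all genes). With stereotypy, 6 were higher and 3 lower than in controls (9.57%, against 5.10% of all genes), and without stereotypy also 6 and 3 (9.57%, against 6.77%). Between the TrkB-deleted groups, 7 were higher and 10 lower with stereotypy (18.1%, against 10.2% of all genes). The 3 LAR-type phosphatases themselves (Ptprd, Ptprf and Ptprs) passed in none of the 4 comparisons, with pooled log2 differences whose median was 0.04.

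Of the 14 secreted ligands tested, 1 was higher and 2 were lower in the pooled comparison. Lgi2, of the family of LGI proteins that bind ADAM receptors across the synapse, had 204, 202 and 156 CPM with stereotypy, 229, 259 and 246 CPM without and 135, 153 and 152 CPM in the controls. All 6 TrkB-deleted libraries were above the controls, by 0.54 (SE 0.10, adjusted p = 0.0106), a call that did not pass once control replicate 1 was left out (adjusted p = 0.0505). Lgi1 had 134, 132 and 145 CPM with stereotypy, 114, 117 and 141 CPM without and 165, 167 and 171 CPM in the controls. All 6 were below the controls, with a difference of -0.36 (SE 0.08, adjusted p = 0.0291). This call passed in 2 of 9 fits that each left out 1 library, those without stereotypy replicate 3 or no stereotypy replicate 3, and the adjusted p reached 0.0784 in the others. Nptx2, a neuronal pentraxin that gathers AMPA receptors, had 21.7, 19.6 and 20.2 CPM with stereotypy, 22.7, 32.1 and 67.7 CPM without and 49.6, 63.0 and 78.6 CPM in the controls. It was lower, with a difference of -1.16 (SE 0.27, adjusted p = 0.0312), although no stereotypy replicate 3 lay within the range of the controls. Of the fits that left out 1 library, the call passed in those without no stereotypy replicate 1 or 3, and the adjusted p reached 0.0929 in the others.

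Among 31 other receptors and ligands, 1 was higher. This was Ptprz1, a receptor phosphatase that binds contactins and is abundant in glia, with 15.7, 23.7 and 26.7 CPM with stereotypy, 12.1, 11.8 and 13.6 CPM without and 10.9, 8.80 and 8.06 CPM in the controls. The controls were below all 6 TrkB-deleted libraries, the stereotypy group by the most, and the pooled difference was 0.77 (SE 0.16, adjusted p = 0.0203). Leaving out stereotypy replicate 2 or control replicates 2 or 3 gave an adjusted p of 0.0547 to 0.0638. Of 25 genes of other adhesion families, Lrrn1 and the low-level gene Nectin3 were higher and Cadm3 was lower. Lrrn1, a leucine-rich repeat protein, had 27.7, 48.4 and 38.8 CPM with stereotypy, 32.6, 28.9 and 35.9 CPM without and 14.7, 15.6 and 21.7 CPM in the controls. The groups did not overlap with control, and the pooled difference was 0.98 (SE 0.17, adjusted p = 0.00907). Cadm3, a nectin-like adhesion protein, had 313, 255 and 324 CPM with stereotypy, 319.9, 339 and 393 CPM without and 451, 425 and 462 CPM in the controls. It was lower in all 6 TrkB-deleted libraries, with a difference of -0.47 (SE 0.10, adjusted p = 0.0184). Leaving out control replicate 1 or 3 ended this call (adjusted p = 0.0644 and 0.054).

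Of 21 intracellular partners of neurexins and neuroligins, 1 was higher in the pooled comparison. Lin7a, a scaffold that works with Cask beneath neurexins, had 53.1, 75.4 and 75.1 CPM with stereotypy, 46.7, 44.7 and 69.1 CPM without and 37.4, 36.5 and 41.9 CPM in the controls. All 6 TrkB-deleted libraries were above the controls, by 0.61 (SE 0.15, adjusted p = 0.0439). Its call passed without stereotypy replicate 1 or without no stereotypy replicates 2 or 3, and without any 1 of the other 6 libraries the adjusted p was 0.0622 to 0.127. In the fit that also held the glial and vascular marker level, none of the 8 pooled calls of these lists passed, with adjusted p from 0.129 (Nectin3) to 0.476 (Lin7a). The differences there were -1.36 for Nptx2, 0.79 for Ptprz1, -0.40 for Lgi1, -0.46 for Cadm3 and 0.52 for Lgi2, close to or larger in size than those above. For Nectin3, Lrrn1 and Lin7a they were 0.88, 0.73 and 0.42, smaller than 1.18, 0.98 and 0.61.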

How the data were processed

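The authors deposited 1 table per library of gene levels in CPM, which scale the reads of a gene to the same total in each library. TopHat and the build GRCm38 are named in the submitters' processing notes. How reads were counted, against which gene models and with or without strand, is not given in the sources used here. Whole reads were recovered, since 100% of the deposited CPM values in every library came out as whole reads within 0.1 of a read. A count of 3 reads corresponds to 0.0739 to 0.111 CPM, and no such floor was applied in the fits. Names, positions, exon lengths and GC content came from GENCODE M21 (47310 of 47729 identifiers matched). Exons overlapping genes of the other strand made up 25.1% of the exon bases of Lrrtm4, 12.9% of Adgrl1 and 9.16% of Nlgn1, and reads of such pairs cannot be told apart.

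Values were transformed to log2(CPM + 1), a scale on which changes of low genes are understated. The 13695 genes that reached 1 CPM in 3 or more libraries entered 1 fit in limma 3.58.1 (R 4.3.3), with group means, a trended prior variance and 6 residual degrees of freedom. Benjamini-Hochberg adjustment ran over all tested genes of a comparison, with a threshold of 0.05. Differences are the first named group minus the second.

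Alternatives were pseudocounts of 0.25 and 4, no filter or one at a mean of 5 CPM, scaling by TMM or by median of ratios, and quantile normalization. Each library was also corrected for its dependence on GC content and exon length, fitted as a sum of smooth curves in mgcv 1.9.3. Further alternatives were array weights, a replicate block, covariates of glial and vascular or of other neuronal markers, and fits to the 2 groups compared. Others were leaving out each library, leaving out replicate 3 of both TrkB-deleted groups, and edgeR 4.0.16 (quasi-likelihood) and DESeq2 1.42.0 on the recovered reads. The fit was checked on simulated data. Motifs were searched on both strands.

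All 40 members are accounted for, 29 with every library: those past the threshold in any comparison (20), the 6 with the largest absolute pooled difference, the 4 with the largest between the TrkB-deleted groups, and the highest of each family. Of each partner list, up to 3 genes per direction past the threshold in the pooled comparison with a mean of at least 5 CPM were named. Nectin3 and Foxp1 lie outside that rule and were named after their values were seen. Members, lists and tests were chosen with earlier results of these data known.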

Additional observations from a re-analysis of the deposited data

Results flagged for a closer look

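For the same 12 of 39 members as above (30.8%, against 10.2% of all tested genes), the change from control differed between the TrkB-deleted groups. This is limma's test of stereotypy minus no stereotypy, in which the control mean cancels, so it adds no further calls. The difference in log2(CPM + 1) was 0.90 for Il1rapl1, 0.78 for Flrt3, 0.74 for Slitrk4, 0.71 for Slitrk2, 0.50 for Nlgn1 and 0.36 for Cntnap2. It was -1.13 for Lrfn2, -0.81 for Lrfn1, -0.45 for Lrfn3, -0.42 for Lrrc4b, -0.38 for Flrt1 and -0.35 for Clstn1. In each of the 12, the 3 stereotypy libraries lay on one side of the 3 no stereotypy libraries. The 12 were picked by their p-values from the same libraries, so this only describes them. Adjusted p ran from 0.0154 to 0.0495 in limma. After removal of the GC and length trend the 12 differences kept their signs, and the smallest adjusted p was 0.0636, that of Lrfn2. Without stereotypy replicate 2 or 3, or without no stereotypy replicate 1 or 2, 0 members passed. At most 1 of all 13695 genes did there.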

How the results depend on the processing

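Counts of members past the threshold are given for stereotypy, for no stereotypy and for both groups against control, then for stereotypy against no stereotypy, where the fit as reported gave 1, 11, 5 and 12. Without a filter they were 0, 2, 1 and 6, with 330, 484, 392 and 572 of all 26238 genes. With the GC and length trend removed they were 4, 8, 7 and 0, with array weights 3, 17, 7 and 24, with the glial and vascular covariate 0, 6, 0 and 6, and with the other-neuron covariate 6, 12, 9 and 0. DESeq2 gave 5, 15, 8 and 17, with 1522, 1509, 1326 and 2343 of all genes. For stereotypy against control alone, a filter at a mean of 5 CPM, TMM scaling, median-of-ratios scaling and edgeR each gave 2, and quantile normalization gave 3. All genes past the threshold there numbered 593 (of 10500 tested), 723, 721, 643 and 609. Leaving out replicate 3 of both TrkB-deleted groups gave 0 members and 0 of all genes between them. Leaving out each library gave 0 to 3, 2 to 12, 2 to 4 and 0 to 14 members. All genes past the threshold then numbered 124 to 805, 317 to 935, 403 to 732 and 0 to 1982. All genes past the threshold numbered 699, 927, 784 and 1398 as reported, 654, 860, 976 and 11 with the trend removed, 15, 595, 80 and 406 with the glial covariate, 860, 1093, 1297 and 0 with the other-neuron covariate, and 958, 1873, 952 and 4698 with array weights. Of 987 settings for 40 single-gene results, 715 kept their side of the threshold and 272 did not, and 0 changed sign. The cause was not tested. The labels do not say whether the replicate numbers pair the libraries. Correlations of same-numbered deviations were -0.0798 to 0.406 over 9 pairs. Those of differently numbered libraries were -0.422 to 0.247, which does not settle the matter. The replicate block gave 4, 12, 5 and 15 members, with 917, 1099, 880 and 1788 of all genes.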
